A study of Mus musculus with 12 samples.

Results

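Neuronal RNA-binding and splicing regulators were followed through the differentiation of P19 cells. The set held 10 genes, chosen by name: Elavl1, Elavl2, Elavl3, Elavl4, Ptbp1, Ptbp2, Msi1, Nova1, Nova2 and Rbfox2. A read was counted when its poly(A) tail call carried the quality tag PASS, its transcript was in the class mRNA and its gene was 1 of the 10. All 10 genes had reads, among 14664 genes with reads in all, and all 10 passed the filter of at least 30 reads over the libraries that 9355 genes passed.

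P19 is a mouse embryonal carcinoma line, here of wild-type genotype, used as a model of neuronal differentiation under retinoic acid. Native RNA was sequenced on nanopores, so each read gave a transcript together with an estimate of how long its poly(A) tail was. The D0 group was undifferentiated cells in serum medium, and the D2, D4 and D6 groups were cells kept for 2, 4 and 6 days in NDiff 227 medium with retinoic acid, which was changed daily. Each day had 3 biological replicates, 12 libraries in all. No untreated culture kept for the same days was used here, so D0 was the only comparison and time, medium and retinoic acid cannot be told apart. All libraries came from 1 established line, and in such bulk RNA fewer cells of a type and less RNA per cell cannot be told apart.

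The Elavl proteins, also called Hu proteins, bind AU-rich stretches in the 3′ ends of messenger RNAs and mostly stabilize them. Elavl1 is made in nearly all cells, whereas Elavl2, Elavl3 and Elavl4 are made mainly in neurons. Ptbp1 binds pyrimidine-rich RNA and keeps many neuronal exons from being spliced in, and its paralog Ptbp2 takes over in developing neurons. Msi1 (Musashi) controls translation in neural progenitors, the Nova proteins direct splicing in neurons, and Rbfox2 belongs to a family of splicing factors that acts in brain, muscle and early embryonic cells.

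In total 4625696 reads passed, between 130162 in D2 replicate 1 and 642548 in D0 replicate 2, and the 10 genes held 3185 of them, between 94 and 416 per library. Levels were given as CPM, reads over the scaled library total in units of 1e6, scaled by trimmed means. The share of mitochondrial reads was between 3.86 and 4.51% at D0 and between 8.28 and 10.5% at D6. Without mitochondrial transcripts and pseudogenes 8 of the 10 genes were called higher and 1 lower at D6, the same counts as with them. Markers of undifferentiated cells summed to between 1707 and 1979 CPM at D0 and to between 3.20 and 7.79 CPM at D6, with Zfp42 and Dppa5a at 0 in every library. Neuron markers summed to between 476 and 530 CPM at D0 and to between 2238 and 2288 CPM at D6, where 7 of 7 tested were higher. Progenitor markers summed to between 771 and 821 CPM at D0 and to between 2523 and 2833 CPM at D6, where 6 of 7 were higher, led by Vim (347 to 1627 CPM) and Fabp7 (3.15 to 507 CPM), and Sox2 was lower (242 to 182 CPM). Glial markers summed to at most 35.2 CPM in every library with S100b, Aqp4 and Olig1 at 0, mesoderm and muscle markers to at most 30.1 CPM with Tnnt2 and Pdgfrb at 0, and endoderm markers to at most 7.43 CPM with Gata4, Sox17 and Afp at 0. The D0 runs were dated December and the D2 and D4 runs the following January, so for D2 and D4 against D0 the day and the run date cannot be told apart. Each D6 library had runs of both dates. The libraries of each day were pooled apart from those of other days, and no run was shared between days. Day, library pool and run therefore cannot be told apart in any comparison, D6 against D0 included.

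The reads ended at 25 sites in the 10 genes, each with at least 5 reads and 5% of the gene's reads within 15 bases, and these sites held 93.0% of the reads. The last 30 bases before the most used sites are shown because they are where the alignments of the counted reads ended. At the end of Ptbp2 exon 2, 81 of 97 reads also had a line on an endogenous retroviral long terminal repeat. Their tails need not begin at that window, which was not tested. They were read from GENCODE vM21 transcripts on the mm10 build, 5′ to 3′ along the RNA and with T for U. Capitals mark the first match, in order of preference, to 12 hexamers known as poly(A) signals, searched in the last 40 bases on the RNA strand only: first AATAAA, then ATTAAA, then AGTAAA, then TATAAA, then CATAAA, then GATAAA, then AATATA, then AATACA, then AATAGA, then AAGAAA, then ACTAAA and last AAAAAG. A match describes the letters only.
Elavl1 main end, chr8:4288343-4288372, minus strand: gaccATTAAAtttgattttgttttgctcga
Elavl1 earlier end, chr8:4289504-4289533, minus strand: AATAGAtaattaagagtgaagaagttgaaa
Elavl2 main end, chr4:91250766-91250795, minus strand: ggtacatcAATAAAcaaagttgaagggaaa
Elavl3 main end, chr9:22015005-22015034, minus strand: tgccagaaAATAAAaagttcagaatcttaa
Elavl3 earlier end, chr9:22015874-22015903, minus strand: aagtggagtcATTAAAgtaataattattaa
Elavl4 main end, chr4:110203737-110203766, minus strand: cagacAATAAAtgaaagtgtgtagaatgaa
Elavl4 earlier end, chr4:110204308-110204337, minus strand: atggtAATAAAacgttatggttatttataa
Ptbp1 earlier end, chr10:79864332-79864361, plus strand: ggctttccATTAAAgcagttttataacctc
Ptbp1 later end, chr10:79864406-79864435, plus strand: cctggattcAATAAAcacctgtgtcttaca
Ptbp2 main end, chr3:119718994-119719023, minus strand: ggcacaATTAAAaattaattttctaacaaa
Ptbp2 end of exon 2, chr3:119781504-119781533, minus strand: attgtcactgaggttgctgttggtgtgaag
Msi1 main end, chr5:115455669-115455698, plus strand: ttaaattcctAATAAAttatttgaaaataa
Nova1 main end, chr12:46697901-46697930, minus strand: tcatTATAAAtgtgcttagttcatcatgta
Nova2 earliest end, chr7:18958924-18958953, plus strand: ttgttgattttAATAGAaaacaaagcgtta
Nova2 middle end, chr7:18964635-18964664, plus strand: ttttttgccgcGATAAAcgtcatctcagca
Rbfox2 main end, chr15:77078990-77079019, minus strand: actgtttttaAATAAAagagagaaacacca

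Each of these windows lies in the annotated 3′ untranslated region of its gene except the window of Ptbp2 exon 2, which is coding and held none of the hexamers. Of the 25 sites, 17 had AATAAA or ATTAAA as their first match and 23 had any of the 12. For comparison, 48.7% of the last 40 bases of 58797 annotated protein-coding transcripts and 2.57% of windows of the same length 500 bases further upstream held AATAAA or ATTAAA, and 60.8 and 12.2% held any of the 12.

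The first comparison asked how much of each regulator the cells held before and after differentiation. At D6 against D0, 8 of the 10 genes rose, Ptbp1 fell and Elavl1 did not pass the test. The largest rises were those of Elavl3, 18.1-fold, and Elavl4, 16.5-fold, followed by Nova1, 7.42-fold, and Elavl2, 3.84-fold. Msi1, Rbfox2, Nova2 and Ptbp2 rose between 1.91-fold and 2.53-fold, and Ptbp1 fell 2.06-fold. Of all 9355 genes tested by limma-voom, 37.5% were called at an adjusted p of at most 0.05 (Benjamini-Hochberg over all genes), 19.4% higher and 18.1% lower. Of the called genes 51.7% were higher, and 63.1% with scaling by total reads, which moved the median of all genes to 0.17 and left the calls of the 10 genes as they were. The median log2 fold change was 1.28 over the 10 genes and 0.02 over all genes. The D0 and D6 libraries did not overlap in any of the 10 genes, 8 being higher and 2 lower, where 23 and 23.7% of all genes were higher and lower without overlap.

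**Figure D1:**
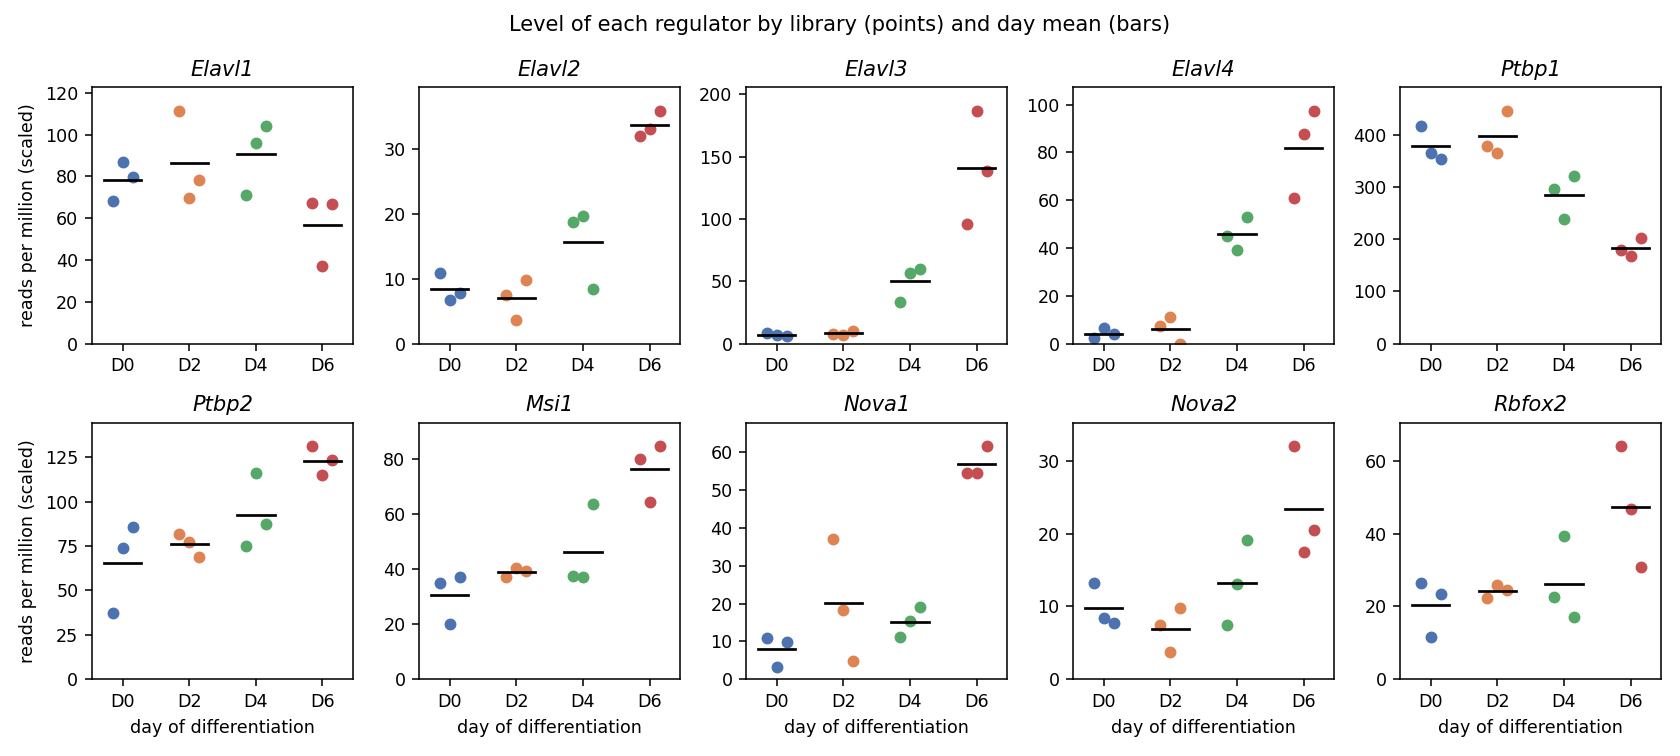
Scaled reads (CPM, vertical axis from 0, a scale of its own in each panel) of the 10 regulators at D0, D2, D4 and D6. Points are the 3 libraries of a day and bars are day means. The D6 points of Elavl3 sit between 96.0 and 187 CPM, above its D0 points of at most 8.78 CPM, and those of Ptbp1 between 167 and 203 CPM, below its D0 points of at least 353 CPM.

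Among the Elavl family, Elavl3 (HuC; ENSMUSG00000003410.8, mm10 chr9:22015005-22052023) had the largest fold change at D6, close to that of Elavl4. It was at 8.78, 6.70 and 5.84 CPM in the D0 libraries (4, 4 and 3 reads), at 7.43, 7.36 and 9.80 CPM at D2, at 33.7, 56.9 and 59.5 CPM at D4 and at 96.0, 187 and 139 CPM at D6 (30, 96 and 54 reads). The D0 and D2 libraries overlapped, while every D4 library lay above both and every D6 library above D4. The log2 fold change at D6 was 4.18 ± 0.44 (SE; limma-voom adjusted p = 4.27e-11, Benjamini-Hochberg), and the mean went from 7.11 ± 1.51 to 140.5 ± 45.5 CPM (SD, n = 3 each).

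Elavl4 (HuD; ENSMUSG00000028546.17, chr4:110203722-110351909) followed the same order. Its D0 libraries held 2.19, 6.70 and 3.90 CPM (1, 4 and 2 reads), its D2 libraries 7.43, 11.0 and 0 CPM, its D4 libraries 44.9, 39.4 and 53.1 CPM and its D6 libraries 60.8, 87.6 and 97.5 CPM. D4 and D6 lay apart from the earlier days and from each other. The log2 fold change at D6 was 4.04 ± 0.52 (SE; limma-voom adjusted p = 6.54e-09), computed against only 7 reads at D0.

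Elavl2 (HuB; ENSMUSG00000008489.18, chr4:91250763-91399984) was late. It was at 11.0, 6.70 and 7.79 CPM at D0, at 7.43, 3.68 and 9.80 CPM at D2, at 18.7, 19.7 and 8.50 CPM at D4 and at 32.0, 33.1 and 35.9 CPM at D6. The D4 libraries overlapped D0, and the D6 libraries lay above all others. Its log2 fold change at D6 was 1.94 ± 0.43 (SE; limma-voom adjusted p = 0.000265).

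Elavl1 (HuR; ENSMUSG00000040028.10, chr8:4285382-4325413), the member of the family made in nearly all cells, was at 68.0, 87.1 and 79.9 CPM at D0, 111, 69.9 and 78.4 CPM at D2, 71.1, 96.2 and 104 CPM at D4 and 67.2, 37.0 and 66.7 CPM at D6. The D6 libraries lay below all others, but replicates 1 and 3 only just below D0 replicate 1. At D6 against D0 the log2 fold change was −0.57 ± 0.24 (SE; limma-voom adjusted p = 0.0536), which missed the threshold, and in 8 of 29 alternative settings it was called lower. Without D6 replicate 2 it was −0.20 (adjusted p = 0.596). With only reads of mapping quality of at least 10, a filter that removed 68.8% of its reads, the value was 0.69 (limma-voom adjusted p = 0.366), the opposite sign.

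The ratio of reads within a library does not depend on its scaling. The log2 ratio of the neuronal members (Elavl2, Elavl3 and Elavl4 together) to Elavl1 was −1.58, −2.07 and −2.13 at D0 and −2.15, −1.58 and −1.87 at D2. It was 0.44, 0.27 and 0.22 at D4 and 1.47, 3.02 and 2.01 at D6. The neuronal members had fewer reads than Elavl1 in every D0 and D2 library and more in every D4 and D6 library. The ratio was 17.1 times higher at D6 than at D0, a log2 difference of 4.09, and 2.24 higher on the log2 scale at D4 (exact two-sided permutation p = 0.1 for each, the smallest that 3 against 3 libraries allow), while at D2 the difference was 0.06 (exact permutation p = 1). Within the runs of December alone the log2 difference at D6 was 4.00. With only reads of mapping quality of at least 10 it was 3.27, or 9.64-fold, at D6 (exact permutation p = 0.1) and 0.91, or 1.89-fold, at D4 (exact permutation p = 0.5), where D0 replicate 1 was at 1.58.

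**Figure D2:**
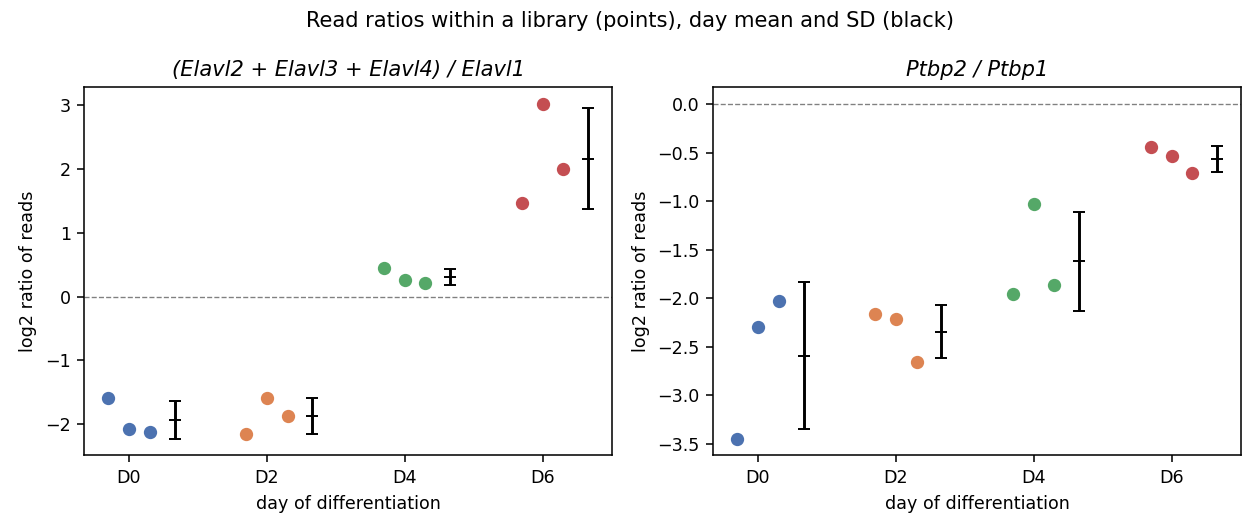
Log2 ratio of reads within each library, for Elavl2, Elavl3 and Elavl4 together over Elavl1 (left) and Ptbp2 over Ptbp1 (right), by day. Points are libraries, black marks are the mean and SD of 3 libraries and the dashed line at 0 is an equal number of reads. The left ratio lies below 0 in all D0 and D2 libraries and above 0 in all D4 and D6 libraries, and the right ratio stays below 0 throughout and reaches −0.45 at D6.

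The polypyrimidine tract-binding proteins moved in opposite directions. Ptbp1 (ENSMUSG00000006498.16, chr10:79854427-79864771), with 1390 of the 3185 reads the most read of the 10 genes, was at 417, 365 and 353 CPM at D0, 379, 364 and 446 CPM at D2, 296, 238 and 321 CPM at D4 and 179, 167 and 203 CPM at D6. Every D4 library was below every D0 and D2 library, and every D6 library below D4. The log2 fold change was −0.41 ± 0.13 at D4 (SE; limma-voom adjusted p = 0.0126) and −1.04 ± 0.14 at D6 (limma-voom adjusted p = 2.41e-08).

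Ptbp2 (nPTB; ENSMUSG00000028134.11, chr3:119718742-119784466) was at 37.3, 73.7 and 85.7 CPM at D0, 81.8, 77.3 and 68.6 CPM at D2, 74.9, 116 and 87.2 CPM at D4 and 131, 115 and 123 CPM at D6. The D4 libraries overlapped D0, and D0 replicate 1 was the lowest of all libraries. The log2 fold change was 0.56 ± 0.23 at D4 (SE; limma-voom adjusted p = 0.0635) and 0.94 ± 0.22 at D6 (limma-voom adjusted p = 0.000445), and without D0 replicate 1 it was 0.58 at D6 (adjusted p = 0.0270). With only the January reads of the D6 libraries it was 0.54 (limma-voom adjusted p = 0.106), and with those of December it was 1.15.

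The log2 ratio of Ptbp2 to Ptbp1 reads was −3.44, −2.30 and −2.03 at D0, −2.16, −2.21 and −2.66 at D2, −1.96, −1.03 and −1.87 at D4 and −0.45, −0.54 and −0.71 at D6. Ptbp1 had more reads than Ptbp2 in every library, D6 included. The difference from D0 was 2.02 on the log2 scale at D6, or 4.07-fold, and 0.97 at D4 (exact permutation p = 0.1 for each), and 0.25 at D2 (exact permutation p = 0.8). Without D0 replicate 1, the lowest library, the difference was 1.60 at D6 and 0.54 at D4. In the runs of December the D6 difference was 2.22.

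Both results on the polypyrimidine tract-binding proteins rested on reads of low mapping quality, the aligner's score for how much better the chosen transcript fits than the next one. Of the Ptbp1 reads 84.1% and of the Ptbp2 reads 88.9% had a score below 10, as did 100% of Nova2, 96.1% of Elavl2, 94.6% of Elavl4, 93.3% of Rbfox2 and 68.8% of Elavl1 reads, against 3.09% of Elavl3, 2.70% of Nova1 and 0.913% of Msi1 reads. Only 99 of the 3185 reads also had a line on a gene or repeat outside the set, and these fell unevenly. Of the 97 Ptbp2 reads that ended at exon 2, 81 had a line on a retroviral long terminal repeat. So did 4 of the other 316 Ptbp2 reads and 0 of the 2772 reads of the other genes. With reads of at least 10 the log2 fold change of Ptbp1 was 0.63 at D4 and −0.54 at D6 (limma-voom adjusted p = 0.455), that of Ptbp2 was 0.26 at D6 (limma-voom adjusted p = 0.733), and the ratio of Ptbp2 to Ptbp1 differed by 0.67 at D6 (exact permutation p = 0.2) and, with the sign reversed, by −1.61 at D4 (exact permutation p = 0.1). Elavl3, Msi1 and Nova1 were called higher at D6 with those reads too, at 4.21, 1.29 and 2.88, and Elavl2, Elavl4, Nova2 and Rbfox2 had too few of them to test.

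Msi1 (Musashi 1; ENSMUSG00000054256.11, chr5:115429599-115455698), the progenitor regulator, was at 35.1, 20.1 and 37.0 CPM at D0, 37.2, 40.5 and 39.2 CPM at D2, 37.4, 37.2 and 63.8 CPM at D4 and 80.0, 64.2 and 84.7 CPM at D6. The D2 and D4 libraries all lay above the D0 libraries, by less than 1 CPM at the closest, and the D6 libraries lay above all others. The log2 fold change was 0.66 ± 0.30 at D4 (SE; limma-voom adjusted p = 0.0978) and 1.34 ± 0.27 at D6 (limma-voom adjusted p = 7.04e-05). With all libraries thinned to the smallest the D6 value was 1.30 (adjusted p = 0.0606).

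Of the Nova splicing factors, Nova1 (ENSMUSG00000021047.7, chr12:46694517-46818929) was at 11.0, 3.35 and 9.74 CPM at D0, 37.2, 18.4 and 4.90 CPM at D2, 11.2, 15.3 and 19.1 CPM at D4 and 54.4, 54.5 and 61.6 CPM at D6. The D2 libraries, with 5, 5 and 1 reads, overlapped both D0 and D4, and the D6 libraries lay above all others. Its log2 fold change at D6 was 2.89 ± 0.45 (SE; limma-voom adjusted p = 5.64e-07) and it was 1.78 higher at D6 than at D4 (limma-voom adjusted p = 0.00106).

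Nova2 (ENSMUSG00000030411.16, chr7:18925888-18965319), with 63 reads the least read of the 10 genes, was at 13.2, 8.37 and 7.79 CPM at D0, 7.43, 3.68 and 9.80 CPM at D2, 7.49, 13.1 and 19.1 CPM at D4 and 32.0, 17.5 and 20.5 CPM at D6. The D6 libraries lay above D0 but overlapped D4. Its log2 fold change at D6 was 1.14 ± 0.44 (SE; limma-voom adjusted p = 0.0355). The call did not hold in 8 of 27 alternative settings, among them without D0 replicate 2 (1.00, adjusted p = 0.128), D0 replicate 3 (0.98, adjusted p = 0.122), D6 replicate 1 (0.95, adjusted p = 0.125) or D6 replicate 3 (1.17, adjusted p = 0.0533), and in the December runs the value was 0.70 (limma-voom adjusted p = 0.356).

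Rbfox2 (ENSMUSG00000033565.18, chr15:77078990-77306928) was at 26.3, 11.7 and 23.4 CPM at D0, 22.3, 25.8 and 24.5 CPM at D2, 22.5, 39.4 and 17.0 CPM at D4 and 64.0, 46.7 and 30.8 CPM at D6. The first 3 days overlapped, and the lowest D6 library was above the highest D0 library but below D4 replicate 2. Its log2 fold change at D6 was 1.22 ± 0.34 (SE; limma-voom adjusted p = 0.00376), and without D0 replicate 2, its lowest library, it was 0.78 (limma-voom adjusted p = 0.0933). With all libraries thinned to the smallest it was 0.83 (adjusted p = 0.332).

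**Figure D3:**
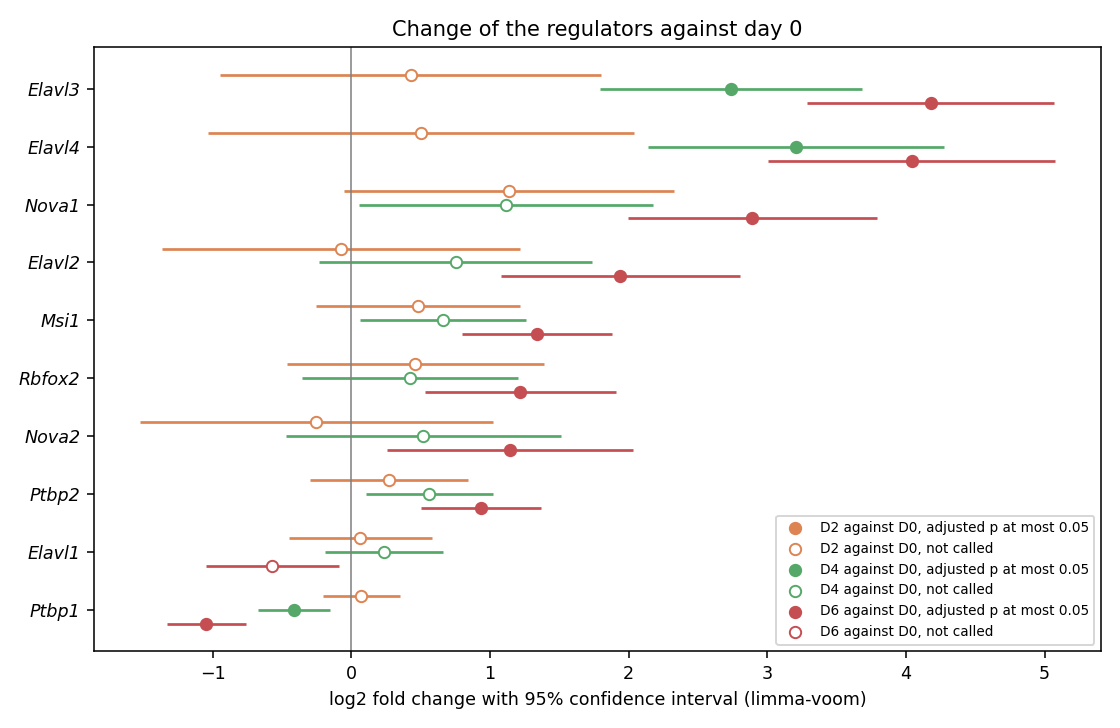
Log2 fold change (horizontal axis) of each regulator at D2, D4 and D6 against D0 with its 95% confidence interval from limma-voom, 3 libraries a day. Filled points are called at an adjusted p of at most 0.05 and open points are not. No point is filled at D2, 3 are filled at D4 (Elavl3, Elavl4 and Ptbp1) and 9 at D6, where Elavl1 alone is open.

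The second comparison asked when the changes came. At D2 none of the 10 genes was called by limma-voom, 0 passed at an unadjusted p of 0.05 and limma-trend also called 0, while 10.8% of all genes were called (4.72% higher, 6.06% lower). The split of all genes, 442 higher and 567 lower, turned with scaling by total reads (633 and 387) and without the filter on low counts (992 and 705). The D2 libraries were the shallowest, and the 95% confidence interval of the log2 fold change ran from −0.20 to 0.35 for Ptbp1 and from −0.95 to 1.80 for Elavl3. At D4 against D0, Elavl3 (log2 fold change 2.74 ± 0.47 SE, limma-voom adjusted p = 8.36e-06) and Elavl4 (3.21 ± 0.53, adjusted p = 4.08e-06) rose and Ptbp1 fell, against 25.5% of all genes called, 12.9% higher and 12.5% lower. The Ptbp1 call at D4 did not hold without D0 replicate 1 (−0.36, adjusted p = 0.0616) or D4 replicate 2 (−0.29, adjusted p = 0.151), with limma-trend (adjusted p = 0.0520), with protein-coding transcripts only (limma-voom adjusted p = 0.0779) or with libraries thinned to the smallest (adjusted p = 0.25), and with reads of mapping quality of at least 10 the value was 0.63.

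Between D2 and D4, where both days were sequenced in January, Elavl3 rose by a log2 of 2.31 (limma-voom adjusted p = 0.00959) and Elavl4 by 2.71 (adjusted p = 0.00408), while 3.25% of all genes were called (2.15% higher, 1.1% lower). Without D2 replicate 3 neither was called (Elavl3 2.41, adjusted p = 0.057; Elavl4 1.94, adjusted p = 0.1), and without D2 replicate 2 Elavl3 was not (2.23, adjusted p = 0.107). Ptbp1 was −0.49 (adjusted p = 0.0519). The D2 libraries held only 0 to 3 reads each of Elavl3 and Elavl4. Over all genes, 128 were called higher and 45 lower of 9224 without D2 replicate 2, against 201 and 103 of 9355 with it.

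Between D4 and D6, 8.28% of all genes were called (4.24% higher, 4.04% lower), that is 397 higher and 378 lower of 9355. Without D4 replicate 2 these were 177 and 276 of 9127. With limma-trend they were 79 and 228, and with scaling by total reads 520 and 271. Elavl3 (1.44, limma-voom adjusted p = 2.50e-05) and Nova1 (1.78, adjusted p = 0.00106) rose further, as did Elavl4 (0.83, adjusted p = 0.0316) and Elavl2 (1.19, adjusted p = 0.0483), and Ptbp1 (−0.63, adjusted p = 0.00321) and Elavl1 (−0.80, adjusted p = 0.0281) fell. Elavl2 and Elavl4 stood close to the threshold: Elavl2 lost its call when any of 10 of the 12 libraries was left out, and Elavl4 without D4 replicate 1 or 2 or D6 replicate 2 or 3. Elavl1 lost it without D4 replicate 2 or 3 or D6 replicate 2, its lowest library (−0.42, adjusted p = 0.423), and Ptbp1 without D6 replicate 2 (−0.51, adjusted p = 0.0709). Msi1 was 0.68 (adjusted p = 0.1), and 0.97 (adjusted p = 0.0496) without D4 replicate 3.

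The third comparison took the annotated transcripts one by one. Reads fell on 40 transcripts of the 10 genes, all 40 with the same coordinates in the table and in the annotation, and 15 had at least 30 reads. At D6, 7 of these 15 were higher and 5 lower, where 29.2% of the 12400 transcripts tested were called, 13.6% higher and 15.6% lower. At D4 against D0, 2 were higher and 1 lower (20% of all transcripts called, 10.5% higher and 9.52% lower), at D4 against D2 1 was higher and 0 lower (3.45%, 3.03% and 0.419%), and at D6 against D4 3 were higher and 1 lower (4.98%, 1.66% and 3.32%), with 2 higher whichever library was left out and with the replicate block. Over all transcripts at D4 against D2, 123 were higher and 28 lower of 12039 without D2 replicate 2, against 376 and 52 of 12400 with it. All 4 tested Ptbp1 transcripts were lower at D6 against D0: ENSMUST00000165704.7 by −0.93, ENSMUST00000172282.7 by −1.22, ENSMUST00000095457.10 by −1.58 and the retained-intron transcript ENSMUST00000169580.1 by −1.03 (limma-voom adjusted p between 5.46e-05 and 0.0330). With only reads of mapping quality of at least 10, a filter that removed 84.1% of the Ptbp1 reads, no transcript of the set was called lower at D6. The retained-intron transcript took 24.2, 16.5 and 25.4% of the Ptbp1 reads at D0 and 16.1, 23.3 and 25.3% at D6, so its share overlapped between the days.

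The Elavl1 reads split between a transcript with a long 3′ end, ENSMUST00000098950.5, and one annotated to the main end shown above, ENSMUST00000209010.1. The latter took 38.7, 38.5 and 39.0% of the Elavl1 reads at D0 and 4.76, 21.1 and 26.9% at D6. Its D6 shares lay below its D0 shares in every library (exact permutation p = 0.1, the smallest possible). Its level fell by 1.74 ± 0.48 on the log2 scale at D6 (SE; limma-voom adjusted p = 0.00531), whereas the long transcript was at −0.21 ± 0.28 (limma-voom adjusted p = 0.614). Of the Elavl1 reads at D0, 83.1% had a mapping quality below 10, and 65.2% at D6.

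For Ptbp2, ENSMUST00000200097.4 rose by 0.99 (limma-voom adjusted p = 0.00799) and ENSMUST00000029780.11 was at 0.61 (limma-voom adjusted p = 0.153). Msi1 had reads on 1 transcript, ENSMUST00000150779.7, which rose by 1.31. Elavl4 reads were spread over 7 transcripts, of which 2 could be tested, ENSMUST00000106597.9 (3.88) and ENSMUST00000106601.7 (3.22), both higher at D6. The main transcripts of Elavl3 (ENSMUST00000003501.8, 4.27), Nova1 (ENSMUST00000021438.7, 2.95) and Rbfox2 (ENSMUST00000171751.9, 1.20) rose, while ENSMUST00000220302.1 of Nova2 was at 1.28 (limma-voom adjusted p = 0.114).

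The places where reads ended gave a further view of the same messages. At the main end of Elavl1, 2961 bases before the last annotated end of the gene, 98 of 124 reads ended at D0 (79.0%, 95% Wilson interval 71.0 to 85.3%) and 41 of 66 at D6 (62.1%, 50.1 to 72.9%). The shares per library were 80.6, 75 and 82.9% at D0 and 57.1, 73.7 and 57.7% at D6. The D6 libraries lay below D0, D6 replicate 2 by little more than 1 percentage point (exact permutation p = 0.1). The earlier Elavl1 end at position 4289504 held 9.68% of reads at D0 and 15.2% at D6, and its libraries overlapped (exact permutation p = 0.3).

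Ptbp1 had a pair of ends 74 bases apart. The earlier one held 60, 56.4 and 56.4% of its reads at D0 and 51.8, 57.0 and 45.6% at D6, and the later one 35.1% at D0 and 42.1% at D6 in the pooled reads. The days overlapped at both ends (exact permutation p = 0.3 for each). Most Elavl3 reads ended at the last annotated base of the gene at D4 and D6, 82.5 and 82.2%, and the earlier end 869 bases before it held 29 reads in all. Elavl4 used its earlier end for 28 of 102 reads at D6 (27.5%) and for 15 of 55 at D4 (27.3%).

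Nova1 reads ended mostly 3384 bases before the last annotated end, 56 of 69 at D6 (81.2%), and the hexamer there was TATAAA. Nova2 reads at the earliest end were 12 of 15 at D0, 3 of 17 at D4 and 12 of 27 at D6, and at the middle end 2 of 15, 13 of 17 and 10 of 27. The Wilson intervals of the earliest end did not overlap between D0 (54.8 to 93.0%) and D4 (6.19 to 41.0%), and these intervals cover counting error only. The libraries of these days did not overlap either, at 100, 60 and 75% at D0 and 50, 16.7 and 11.1% at D4. The D4 libraries held only 2, 6 and 9 Nova2 reads. The libraries at D0 and D6 did overlap (exact permutation p = 0.2). No site had more than 8 A among the 20 bases after it, where these were known.

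**Figure D4:**
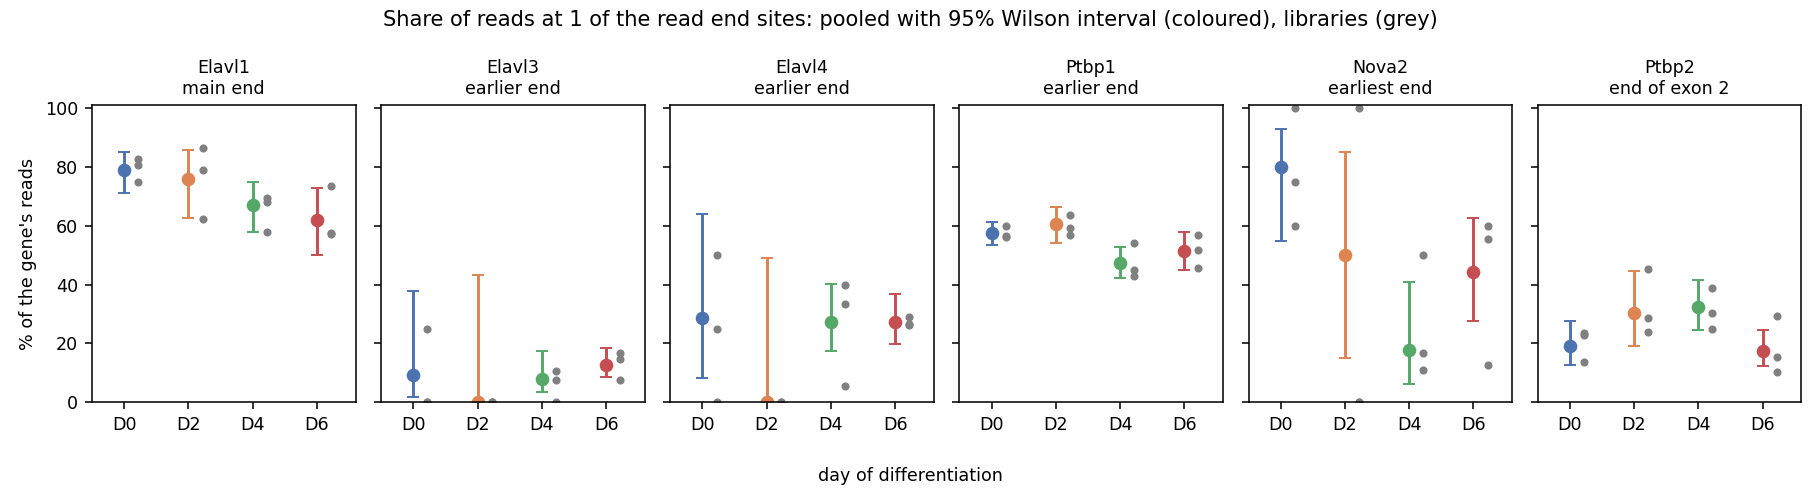
Percent of a gene's reads (vertical axis) that ended at a given site, by day, for Elavl1, Elavl3, Elavl4, Ptbp1, Nova2 and Ptbp2. Coloured points pool the reads of a day with a 95% Wilson interval for counting error and grey points are the libraries. The Elavl1 share goes from 79.0% at D0 to 62.1% at D6, and the pooled share of Ptbp2 reads at the end of exon 2 goes from 19% at D0 to 32.5% at D4 and 17.6% at D6, with the highest single library at D2.

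Ptbp2 had alignments that ended inside the gene. Of its 413 reads, 97 stopped within 6 bases of the end of exon 2 (chr3:119781504-119781534, 31 bases, coding in ENSMUST00000200097.4), 75 of them at its last base. They were 20 of 105 reads at D0 (19%), 14 of 46 at D2 (30.4%), 37 of 114 at D4 (32.5%) and 26 of 148 at D6 (17.6%). The libraries held 23.5, 13.6 and 22.7% at D0, 45.5, 23.8 and 28.6% at D2, 25.0, 30.2 and 39.0% at D4 and 29.3, 15.3 and 10.4% at D6. The D4 libraries lay above D0 (exact permutation p = 0.1), and D6 overlapped it (exact permutation p = 0.9).

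The window of these reads shown above holds none of the 12 hexamers. Their median aligned length was 106 bases and their median tail 96.1 nt, against 136 nt in the other 316 Ptbp2 reads. Since 81 of the 97 also had a line on a retroviral long terminal repeat, these need not be tails of a Ptbp2 end, which was not tested. Without them the log2 fold change of Ptbp2 at D6 was 0.96 and was still called, and the ratio of Ptbp2 to Ptbp1 differed from D0 by 2.04 at D6 and by 0.75 at D4 (exact permutation p = 0.4 at D4).

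Poly(A) tails were compared next, with the length estimated for each read and the median of a gene in each library. Genes with at least 5 reads in each of the libraries compared could be tested, which left Elavl1, Ptbp1, Ptbp2, Msi1 and Rbfox2 at D6. None of these 5 passed in median length, in the share of tails of 30 to 90 nt or in the share under 30 nt, where 3.68% (1.58% longer, 2.1% shorter), 2.7 and 0.635% of the 5516 genes tested were called. These shares rest on weighting each library by its reads: without weights 1 gene was called in median length in place of 203, 0 in the share of 30 to 90 nt in place of 149 and 12 in the share under 30 nt in place of 35, and none of the 5 genes in any of them. At an unadjusted p of 0.05 Msi1 and Ptbp1 were longer. At D4, where 2.27% of genes were called in median length, none of the same 5 genes was, and at D2, where 2.62% were, none of the 4 that could be tested (Elavl1, Msi1, Ptbp1 and Ptbp2).

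Msi1 had the longest pooled median tail of the 5 genes on each day, at 164, 172, 182 and 217 nt at D0, D2, D4 and D6. Its library medians were 217, 139.5 and 137 nt at D0, 169, 168 and 180.3 nt at D2, 181, 185 and 182 nt at D4 and 222, 217 and 208 nt at D6. D0 replicate 1, with 16 reads, stood apart from the other D0 libraries and within the range of D6. The difference at D6 was 50.4 ± 16.2 nt (SE; limma adjusted p = 0.0937), and without D0 replicate 1 it was 77.1 nt (limma adjusted p = 0.00385), while without D0 replicate 3 it was 31.5 nt (limma adjusted p = 0.536). The D6 reads of Msi1 had a median of 222 nt in the December runs and 209 nt in those of January.

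Ptbp1 tails had library medians of 97.8, 105 and 106 nt at D0, 118, 112 and 112 nt at D2, 104, 102 and 116 nt at D4 and 128, 110.0 and 124 nt at D6. The D2 and D6 libraries lay above D0. The difference at D6 was 16.7 ± 6.27 nt (SE; limma adjusted p = 0.179), but it was −10.8 ± 15.5 nt with only reads of mapping quality of at least 10 (adjusted p = 0.84), and the share of its tails between 30 and 90 nt differed by −10.3 ± 3.73 percentage points (limma adjusted p = 0.182).

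Ptbp2 tails had a pooled median of 134 nt at D0, 126 nt at D2, 109 nt at D4 and 121 nt at D6 (D6 against D0, −14.2 ± 9.63 nt SE, limma adjusted p = 0.551, and D4 against D0, −23.4 ± 10.0 nt, unadjusted p = 0.0294, adjusted p = 0.436). In the Ptbp2 reads that did not end at exon 2 the pooled medians were 147.5, 143, 133 and 128 nt at D0, D2, D4 and D6, lowest at D6. Elavl1 tails stayed between 137 and 152 nt in the pooled medians (−2.0 ± 11.5 nt at D6, limma adjusted p = 0.97), and those of Rbfox2 between 127 and 154 nt (15.3 ± 18.4 nt, limma adjusted p = 0.785). The other 5 genes had too few reads early for a test. In the pooled D6 reads their medians were 105 nt for Elavl3 (180 reads), 130.0 nt for Elavl4 (102), 134 nt for Elavl2 (41), 171 nt for Nova1 (69) and 152 nt for Nova2 (27). Elavl3 had the shortest pooled median of the 10 genes at D6 and Msi1 the longest.

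**Figure D5:**
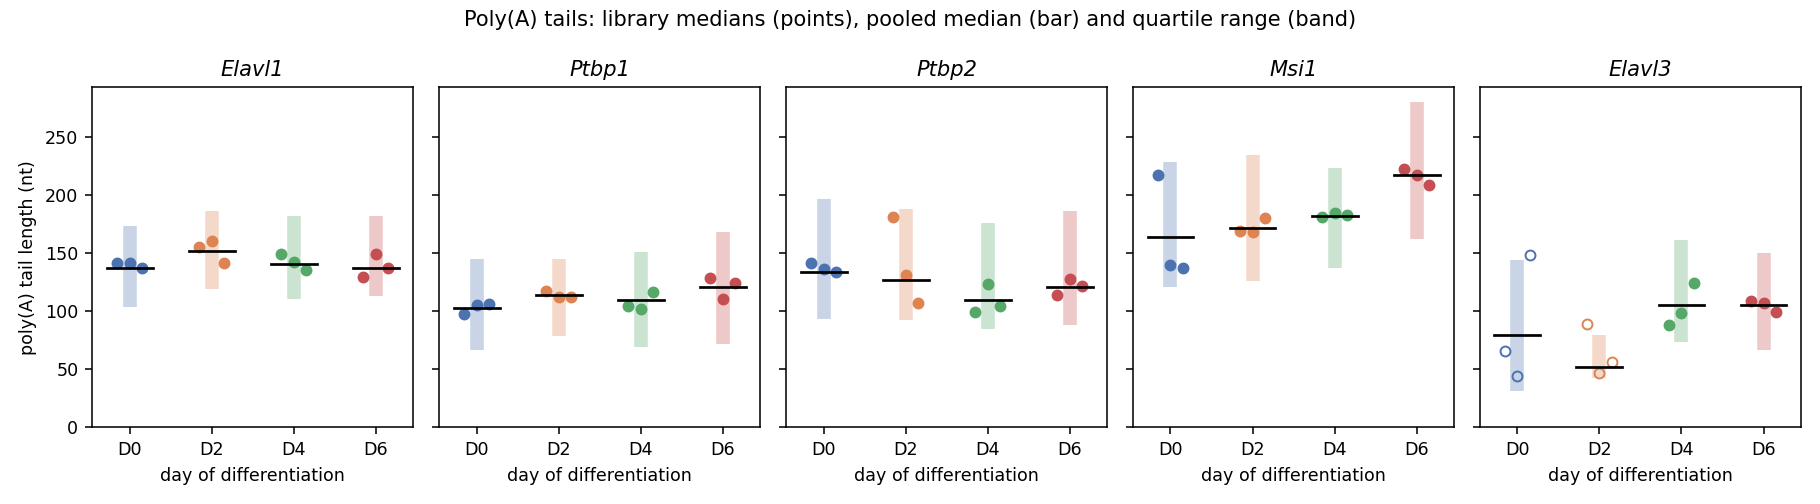
Poly(A) tail length in nucleotides (vertical axis from 0) of Elavl1, Ptbp1, Ptbp2, Msi1 and Elavl3 by day. Points are library medians (open where a library had under 5 reads), bars the median of the pooled reads of a day and bands the range between the quartiles. The D6 medians of Msi1 lie between 208 and 222 nt and 1 D0 library, at 217 nt, lies among them.

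Over all reads of the 10 genes together, the median tail of a library was 112, 117 and 120 nt at D0, 127, 125 and 119 nt at D2, 115.5, 123 and 130.2 nt at D4 and 134, 132 and 135 nt at D6. Every D6 library lay above every D0 library, by 17.7 nt on average (exact permutation p = 0.1). With only reads of mapping quality of at least 10 the difference was 10.65 nt and the days overlapped (exact permutation p = 0.3). In all reads the median went the other way, from between 97.1 and 102 nt at D0 to between 91.6 and 95.04 nt at D6, a difference of −6.91 nt (exact permutation p = 0.1). The mix of genes moved at the same time, since Ptbp1 made up 57.5 to 66.2% of these reads at D0 and 20.7 to 23.5% at D6. When 4 genes with enough reads counted equally, the difference was 12.8 nt and the days overlapped (exact permutation p = 0.3).

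The regulators were then set beside other RNA-binding proteins of splicing, stability and translation, a list of 53 genes of which 38 could be tested and 2 had no reads. At D6, 10 of these 38 were higher and 5 lower, with a median log2 fold change of 0.16, a share called near the 37.5% of all genes. Celf3, a neuronal splicing factor, went from 1 read over the D0 libraries to 41 over the D6 libraries, a ratio of 52.8 after scaling (95% exact counting interval 8.96 to 2137; limma-voom log2 fold change 4.63, adjusted p = 8.47e-08). Srrm4, which promotes neuronal microexons, was absent from the D0 reads (0 reads) and counted 26 times at D6, at least 11.2-fold higher against a floor of 3 reads over the D0 group (limma-voom adjusted p = 4.46e-07). Srrm3, its relative, went from 1 to 17 reads (ratio 21.9, interval 3.43 to 915; limma-voom adjusted p = 0.000159), and Cirbp, a cold-inducible RNA-binding protein, from 10.4 to 67.1 CPM (log2 fold change 2.73, limma-voom adjusted p = 8.24e-07).

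Lower at D6 were Zfp36l2, which promotes decay of AU-rich messages (29.2 to 8.41 CPM; −1.98, limma-voom adjusted p = 0.00905), Rbm24 (18 to 5 reads; −1.72, adjusted p = 0.0477), Rbms2 (24.1 to 9.43 CPM; −1.51, adjusted p = 0.0110) and Raver2, a partner of Ptbp1 (28.8 to 13.3 CPM; −1.28, adjusted p = 0.0119). Of 8 messages known as targets of the 10 regulators, 5 could be tested and 2 were called at D6, both higher, beside the 37.5% of all genes called. Gap43, an Elavl4 target of growing axons that also stands among the neuron markers, went from 58.4 to 357 CPM (log2 fold change 2.60, limma-voom adjusted p = 5.29e-17). Mapt, which encodes tau and is bound by Elavl4, went from 2 to 117 reads (ratio 75.4, counting interval 20.4 to 630; limma-voom adjusted p = 2.58e-09).

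Over the 12 libraries, the genes whose log2 CPM was most like that of Elavl3 were Tubb2b (Pearson r = 0.984), Marcks (0.976) and H2bu2 (0.975), among 1842 genes compared, each averaging 30 or more reads in a library. Those most like Ptbp1 were Mt1 (0.959), Umps (0.952) and Tuba1c (0.951). These values describe 12 points that share their day, run date and library, and no test was made of them.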

How the data were processed

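Direct RNA-seq of 12 libraries was deposited as 1 table with a line per read. The authors basecalled with Guppy, aligned with minimap2 2.20 to mm10 annotated with GENCODE vM17, estimated tails in nucleotides with Nanopolish and assigned barcodes with DeePlexiCon, and the deposited mapping quality is a score and the deposited barcode confidence a fraction. A table of log2 fold changes and p-values that the authors made with DESeq2 was not used. Of 6306434 lines, 69 were malformed and 4.59% had no library.

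The 10 genes and all lists were chosen with earlier results of these data known. Reads with the tag PASS and class mRNA were tallied by gene and transcript. Those with at least 30 reads were tested with limma-voom (limma 3.58.1, R 4.3.3) over all 12 libraries, with a pseudocount of 0.5 and trimmed-mean scaling (trims 30% and 5%). Tails were tested with limma on library medians, weighted by reads. p-values were adjusted by Benjamini-Hochberg over everything tested. Single values had exact two-sided permutation tests, which cannot go below 0.1 with 3 against 3 libraries. The code was tested on simulated data. Intervals and floors cover counting error only. Named were all 10 genes, the 4 most raised and 4 most lowered listed regulators called without overlap, called targets, and the 3 genes most like the member that rose most and the one that fell most. Replicate numbers were not treated as pairs, since the labels do not say that a number marks a shared source, and replicates of a day shared multiplexed runs. The deviations from day means correlated above 0.1 in 7 of 18 same-number pairs (r between −0.167 and 0.256). Of the 12 libraries 9 had their highest correlation with a library of the same number, so these values do not settle whether numbers share a source. Alternatives are given in the closing section. Python 3.11.15, pandas 2.3.3, numpy 2.4.6, scipy 1.17.1 and matplotlib 3.10.9 were used.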

Additional observations from a re-analysis of the deposited data

Results flagged for a closer look

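Of the 97 Ptbp2 reads that ended at exon 2, 81 also had a line on an endogenous retroviral long terminal repeat, a signal in data outside the messenger RNA class that the comparisons used. Of these, 58 were on ERVB7_1-LTR_MM and 23 on RLTRETN_Mm. By day, 19, 12, 31 and 19 reads at D0, D2, D4 and D6 had such a line. The other 316 Ptbp2 reads had 4, and the 2772 reads of the other 9 genes had 0. Among the 9355 genes tested, Ptbp2 ranked 8 by the share of its reads with a line on a repeat of the ETn type, to which both belong, 84 reads or 20.3%, against 0.0125% of all reads.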

How the results depend on the processing

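Calls at D6 against D0 held for Elavl2, Elavl3, Elavl4 and Nova1 in every alternative that could be fitted. Among the main comparisons, 274 values under alternatives were labelled the same, 34 moved and 6 reversed. For counts of called genes the same meant a similar size, but for ratios and pooled tails it meant only the same sign. The Ptbp2 to Ptbp1 difference at D6 was among the same values at 0.67 with mapping quality of at least 10, against 2.02 in the report. Alternatives on run dates, Ptbp2 reads at exon 2, protein-coding or non-mitochondrial transcripts, aligned length and the first line of each read were chosen after seeing the data. The causes were not tested, except that reads of mapping quality of at least 10 and thinning leave fewer genes to test.

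With mapping quality of at least 10, 3 of the 10 genes were higher and 0 lower at D6 against D0 (8 and 1 in the report), 0 lower at D4 against D0, 1 higher at D4 against D2, and 2 higher and 0 lower at D6 against D4. Among transcripts, 0 were lower at D4, 3 higher and 0 lower at D6, and 0 lower at D6 against D4. All genes called at D6 numbered 2181, against 3512 in the report. The log2 fold change turned to 0.63 for Ptbp1 at D4 and to 0.69 for Elavl1 at D6, the log2 ratio of the neuronal Elavl genes to Elavl1 to −1.35 at D2, that of Ptbp2 to Ptbp1 to −1.35 at D2 and −1.61 at D4, the Ptbp1 tail difference at D6 to −10.8 nt, and the pooled tail difference of the 10 genes to −7.88 nt at D2 and −3.81 nt at D4. With the medians of 4 genes counted equally the difference was −0.72 nt at D4. With mean log2 lengths the Elavl1 tail difference at D6 was 0.11 on the log2 scale.

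Thinned to the smallest library, 1 gene was higher and 0 lower at D4, 4 higher at D6, 0 higher at D4 against D2, and 1 higher and 0 lower at D6 against D4, with 1143 genes called at D6 in all. limma-trend called 0 lower at D4, and 1 higher and 1 lower at D6 against D4, and the restriction to protein-coding transcripts called 0 lower at D4. A barcode confidence of at least 0.75 called 2 lower at D6. At D4 against D2, 1 was lower with median-of-ratios scaling, total reads or all quality tags. At D6 against D4, 2 were higher and 1 lower without a filter on low counts or in the January runs, and 1 was lower with total reads or all quality tags.

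The labels do not say that a replicate number marks a shared source. Of 18 same-number pairs 7 correlated above 0.1, between 0.0795 and 0.132 for D2 with D4 and between 0.0901 and 0.177 for D4 with D6. With the replicate number as a block, 1 gene was lower at D4 against D2 and 2 were higher at D6 against D4, 3174 genes were called at D6 in all, and the counts of the 10 genes at D6 against D0 were 8 higher and 1 lower. Of the 12 libraries 9 had their highest correlation with a library of the same number, and 1 had it on every other day.

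Leaving out 1 library at a time gave 2 to 3 genes higher and 0 to 1 lower at D4, and 6 to 8 higher and 1 to 2 lower at D6. It gave 0 to 2 higher and 0 to 1 lower at D4 against D2, and 2 to 4 higher and 0 to 2 lower at D6 against D4. Among transcripts it gave 1 to 3 higher and 0 to 2 lower at D4, and 5 to 7 higher and 4 to 5 lower at D6. It gave 0 to 1 higher at D4 against D2 and 0 to 2 lower at D6 against D4, and for tail length at D6 0 to 1 longer. Tail differences at D6 ran from −6.34 to 2.19 nt for Elavl1 and from −2.06 to 32.3 nt for Rbfox2. The share of 30 to 90 nt tails of Msi1 ran from −4.18 to 1.92 points and the share under 30 nt of Ptbp1 from −0.32 to 2.91 points. At D2 the log2 ratio differences ran from −0.083 to 0.23 for the Elavl genes and from −0.18 to 0.53 for Ptbp2 to Ptbp1.

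Depth limits these values: Elavl2, Elavl3, Elavl4, Nova1 and Nova2 had 0 to 5 reads in each D2 library. Tests over 3 against 3 libraries cannot go below 0.1. The run date and the day cannot be told apart at D2 and D4. No run was shared between days, so the day and the run cannot be told apart at D6 either.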
